A study of Mus musculus with 2 samples.

Results

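The cells described here are lung monocytes, picked out of 2 single-cell RNA libraries from mouse lungs at postnatal day 10. They number 110 of the 8559 cells that passed the quality limits, 54 of 4141 in the control library and 56 of 4418 in the mutant library. A cell was taken when it held at least 3 unique molecular identifiers (UMIs, counted RNA molecules) of the immune genes Tyrobp and Laptm5 and at least 4 UMIs over the 6 genes Ly6c2, Ccr2, F13a1, Plac8, Ace and Treml4. It was refused with 5 or more UMIs of the alveolar macrophage genes Chil3, Marco, Ear1, Ear2 and Krt79, more than 5 of the C1q genes, more than 1 of Cd79a and Cd3e, or more than 2 of Epcam, Pecam1 and Col1a2. Levels of these genes therefore follow from the choice and are given as a description only.

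The study made 1 library from a control and 1 from a mutant whose title names Nkx2-1 together with Aqp5, where the control title names Nkx2-1 alone. Nkx2-1 encodes a transcription factor of the lung epithelium, and Aqp5 encodes an aquaporin found in the flat gas-exchange cells of the alveolus, the AT1 cells. The sources used here give no strain, sex, number of pooled animals, or the alleles and Cre driver of either genotype, and the age of postnatal day 10 holds for both. Before loading, 4 lineages of lung cell (epithelium, immune cells, endothelium, mesenchyme) were purified by FACS, so the share of monocytes among all cells is set by the sort. With 1 library per genotype there is no replicate check: every interval below is a 95% interval for counting error only, no p-value is given, and a difference between genotypes cannot be told apart from a difference between 2 preparations.

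Monocytes are made in the bone marrow, circulate in blood and enter tissues. In the mouse, classical monocytes carry the surface protein Ly6C and the chemokine receptor CCR2, which draws them out of the marrow and into inflamed tissue, and they can become macrophages or dendritic cells. Non-classical monocytes arise from classical ones, depend on the nuclear receptor NR4A1, carry little Ly6C and CCR2, and patrol the inner face of small vessels, of which the lung is rich.

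The selected cells held a median of 5939 UMIs in the control (range 2287 to 17605) and 5720 in the mutant (3896 to 16165). The libraries as a whole differed more, with medians of 5943 and 8305 UMIs per barcode and totals of 29862980 and 47271104 UMIs. The libraries shared 27 cell barcodes, and 0 of the selected cells carried a barcode seen in the other library. Per selected cell the 6 rule genes summed to a median of 20 UMIs (control) and 24 UMIs (mutant), with a highest value of 123 in each. Just inside the limit, at 4 UMIs, lay 3 control and 3 mutant cells, and just outside it, at 3 UMIs, lay 6 and 2 otherwise eligible cells.

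The label was checked against genes outside the rule, and it held for only part of the selection. Lyz2, the lysozyme that marks monocytes, macrophages and granulocytes, reached 20 UMIs in 37 of 54 control and 34 of 56 mutant cells. Its lowest, median and highest values were 0, 43 and 340 UMIs in control cells and 0, 63 and 335 in mutant cells. The 2 libraries overlapped over this whole range.

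Other blood cells were among the selected ones. At least 3 UMIs of a fixed neutrophil list were held by 14 control and 7 mutant cells, of a dendritic cell list by 7 and 11, of a T cell list by 6 and 4, of a plasmacytoid dendritic cell list by 1 and 5, of a natural killer list by 1 and 3, of a basophil and mast cell list by 1 and 0, and of a B cell list by 0 and 0. In the control 5 cells held 20 or more neutrophil UMIs, up to 1747 in a single cell, and in the mutant 1 did. All cells at or above 3 UMIs of any of these 7 lists were left out of the comparisons, 26 in the control and 24 in the mutant. That limit also removes classical monocytes with a few S100a8 or S100a9 molecules. The remaining 28 control and 32 mutant cells are called monocytes below, although 9 of the mutant ones carry dendritic cell RNA (below).

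Those monocytes still differed in ways the limits did not reach. RNA of 10 epithelial genes, such as the surfactant gene Sftpc, the AT1 gene Ager and the club cell gene Scgb1a1, came to 50 or more UMIs in 10 of 28 control and 3 of 32 mutant monocytes. Its median per monocyte was 16.5 UMIs in control cells and 1 in mutant cells. Scrublet, which scores each cell against simulated doublets, marked 0 of the 110 selected cells.

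MHC class II RNA (Cd74, H2-Aa, H2-Ab1 and H2-Eb1, the antigen display proteins of dendritic cells, B cells and some macrophages) reached 20 or more UMIs in 9 of 32 mutant and 0 of 28 control monocytes. Among all selected cells it did so in 16 of 56 mutant and 5 of 54 control cells. In 7 of the 9 mutant monocytes Lyz2 was under 20 UMIs. Together these 9 cells held 0 UMIs of Ly6c2, Ace and Treml4, and they were kept mainly by Ccr2 and Plac8. Their level of Cst3, abundant in dendritic cells, was 15304 counts per 1e+06 UMIs (CPM) against 2744 CPM in the other 23 mutant monocytes. Irf8, a transcription factor of dendritic cell and monocyte development, stood at 1023 against 194 CPM. Clec9a, Itgae and Xcr1, markers of conventional dendritic cells, had 5, 2 and 1 UMIs in these cells and 0 in the other 23, Naaa stood at 879 against 64.6 CPM and Cd24a at 620 against 144 CPM. They are called MHC class II-high cells below. They remain in the main comparisons, as the limits left them, and values without them are given where they matter.

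For these reasons the non-classical share and most comparisons of mutant and control are given a second time in a stricter set, chosen after the data were seen. It holds the selected cells with at least 20 Lyz2 UMIs, under 50 epithelial, under 20 MHC class II, under 20 neutrophil and under 3 UMIs of each other list, 24 in the control and 24 in the mutant. It is called the Lyz2-high set. Its list values cover genes tested over all monocytes that held at least 5 UMIs in the set. Requiring Lyz2 works against non-classical monocytes, which carry less of it.

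**Figure D1:**
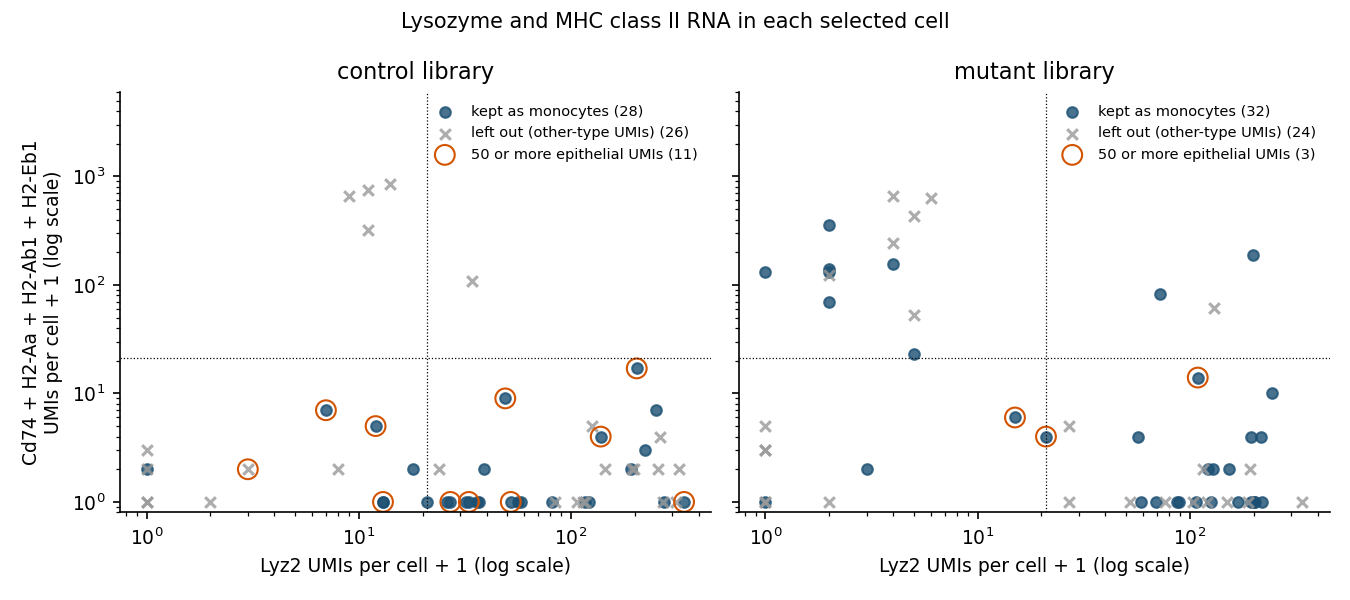
Each point is a selected cell, with its Lyz2 UMIs (x axis) and its summed Cd74, H2-Aa, H2-Ab1 and H2-Eb1 UMIs (y axis), both plus 1 on log scales. Circles were kept as monocytes, crosses were left out for UMIs of another cell type, rings mark 50 or more epithelial UMIs, and dotted lines stand at 20 UMIs. The upper part of the mutant panel holds 9 kept cells and that of the control panel 0.

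Among immune cells, defined by the Tyrobp and Laptm5 limit alone, the selected cells made up 25.5% in the control (54 of 212, exact Clopper-Pearson interval 19.8% to 31.9%) and 22.9% in the mutant (56 of 245, 17.8% to 28.6%). The intervals overlap. A difference in this share was not detectable at these cell numbers. With every cell thinned to 2000 UMIs before the limits were applied, the share was 35.1% for the control and 28.0% for the mutant.

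The 6 rule genes, which chose the cells, divided them as follows. On GRCm38 with the GENCODE M21 annotation Ly6c2 lies at chr15:75108158-75111970, Ccr2 at chr9:124101950-124113557, Ace at chr11:105967945-105989964 and Treml4 at chr17:48264295-48275360. Plac8, a small cysteine-rich protein of myeloid cells, was found in 48 of 54 control and 51 of 56 mutant cells, with medians of 13.5 and 17.5 UMIs and highest values of 100 and 93. The 2 libraries overlapped fully in Plac8. Ly6c2, which encodes Ly6C, was found in 27 control and 31 mutant cells, at up to 19 and 33 UMIs. Ccr2 was found in 30 and 48 cells, at up to 10 and 16 UMIs, and F13a1, a clotting factor subunit made by monocytes, in 15 and 19 cells, at up to 10 and 7 UMIs.

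The 2 rule genes of non-classical monocytes differed far more. Ace, which encodes angiotensin-converting enzyme, was found in 18 control and 2 mutant cells, with 42 and 4 UMIs in all. Treml4, a receptor of the TREM family, was found in 17 control and 5 mutant cells, with 42 and 6 UMIs in all. In the control single cells reached 7 Ace and 6 Treml4 UMIs, and in the mutant 3 and 2.

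The background was read in cells of other lineages. After thinning to 2000 UMIs, Ly6c2 was found in 40.7% of control and 44.6% of mutant selected cells (50% and 55.4% unthinned), and in 0.5% and 0.415% of endothelial cells, whose median depths were 4441 and 5308 UMIs. For Treml4 the thinned shares were 18.5% and 5.36% in the selected cells (31.5% and 8.93% unthinned) and 0% and 0% in endothelial cells. In 600 and 482 endothelial cells a count of 0 allows a share of up to 0.613% and 0.762% (exact Clopper-Pearson bounds). Ace is itself an endothelial gene, with 56.8% and 57.1% of endothelial cells positive after thinning, so mesenchymal cells, at 3.93% and 5.95%, serve as its background. The thinned share of Ace in the selected cells was 18.5% for control cells and 1.79% for mutant cells, and the mutant share lay below that background.

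Monocytes were then split by these genes. A cell with more UMIs of Ly6c2, Ccr2 and F13a1 than of Ace and Treml4 was called classical, and the reverse non-classical. The control held 12 classical, 14 non-classical and 2 tied cells, and the mutant 26 classical, 3 non-classical and 3 tied. Non-classical cells were thus 50% of control monocytes (interval 30.6% to 69.4%) and 9.38% of mutant monocytes (1.98% to 25%). The split uses genes of the selection rule, so these shares describe the selected cells, and the intervals hold no spread between animals. In 2 of the 3 mutant non-classical cells the class rests on 1 UMI of Ace or Treml4. With a margin of 3 UMIs between the sums, 10 of 28 control and 1 of 32 mutant monocytes were non-classical. Over all selected cells, other blood cells included, the counts were 17 of 54 and 3 of 56.

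How large this difference is depends on which cells are counted. In the Lyz2-high set 7 of 24 control cells (29.2%, interval 12.6% to 51.1%) and 2 of 24 mutant cells (8.33%, 1.03% to 27%) were non-classical. Without the cells of 50 or more epithelial UMIs the counts were 9 of 18 and 3 of 29, and without the MHC class II-high cells they were 14 of 28 and 3 of 23. The macrophage limit matters too, since Ear2 and Chil3 are also made by monocytes: with only Marco, Ear1 and Krt79 in that limit, 9 control and 4 mutant cells joined the selection, 8 and 2 of them with at least 3 Ear2 UMIs, and the counts became 19 of 35 and 3 of 33. With a split on other genes (Vcan, Fn1, Mgst1, Ms4a4c and Thbs1 against Nr4a1, Itgal, Eno3, Adgre4, Spn, Cx3cr1, Pou2f2 and Ceacam1), chosen after the data were seen, they were 22 of 28 and 14 of 32, which moved the shares most. Nr4a1, itself lower in the mutant, is part of that split. The control share was the higher one under each of these definitions.

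**Figure D2:**
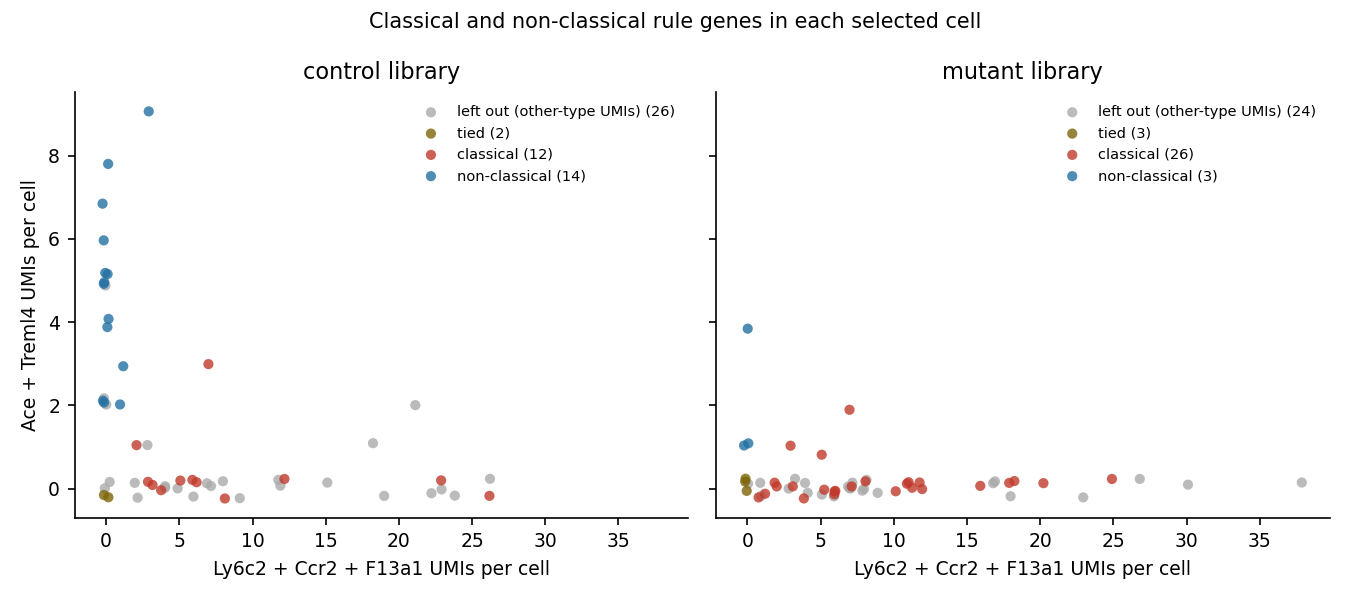
Each point is a selected cell, with its Ly6c2, Ccr2 and F13a1 UMIs on the x axis and its Ace and Treml4 UMIs on the y axis, moved by up to 0.25 UMIs so that points do not cover each other. Colours give the class, and the number of cells of each class stands in the key. In the control 14 cells climb the y axis near 0 on the x axis, and in the mutant 3 do.

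Genes outside the split were compared between the subsets inside each library, so that each library serves as its own reference. Of 2247 genes with at least 20 UMIs over both subsets and libraries, 82 were at least 2-fold higher in non-classical cells in both libraries (3.65%) and 49 at least 2-fold lower in both (2.18%). The mutant side of this comparison rests on 3 non-classical cells, and the intervals are wide. The deepest of the 3, at 11606 UMIs, held 1 Treml4 UMI and 0 Lyz2 UMIs. That cell also held 6 of the 11 Nr4a1 UMIs and 16 of the 19 Fos UMIs of the mutant non-classical cells.

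Genes known for non-classical monocytes lay mostly on the non-classical side. Of the 13 tested genes of the non-classical list, 13 were higher in control non-classical cells, with a median log2 ratio of 1.93. In the mutant 9 were higher and 3 lower, and the side of Spn, with 8 UMIs in classical and 0 in the 3 non-classical cells, is not given by its bound. The mutant median lay between 0.78 and 1.36, depending on Spn. In both libraries 5 were at least 2-fold higher. Over all 2247 tested genes the medians were 0.01 and 0.13, and 3.65% were at least 2-fold higher in both. By the sign of the ratio or bound, 1123 of the 2247 were higher in the control and 1246 in the mutant. The 5 were Gngt2, Fcgr4, Cd36, Adgre4 and Slc12a2. Gngt2, a G protein gamma subunit, stood at 59.7 CPM in classical and 1227 CPM in non-classical control cells, a ratio of 20.6 (interval 8.49 to 64.8). In the mutant it stood at 142 and 448 CPM, a ratio of 3.15 (1.39 to 6.67). Fcgr4, the activating receptor for IgG2 antibodies, went from 1 UMI in classical to 17 UMIs in non-classical control cells and from 2 to 4 UMIs in the mutant.

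Cd36, a scavenger receptor for lipids, gave ratios of 9.14 (2.77 to 47.4) in the control and 8.58 (1.85 to 43.2) in the mutant. Adgre4, an adhesion receptor of the EGF-TM7 family, gave 9.14 (2.15 to 81.9) and 4.58 (1.62 to 12.2). Not every listed gene behaved alike in both libraries. Cx3cr1, the fractalkine receptor that is higher on non-classical monocytes, gave a log2 ratio of 1.41 in the control and -1.54 in the mutant, with counting intervals that reach both sides of 0 in each. Nr4a1 did not separate the subsets in the control, at 1182 CPM in classical and 1349 CPM in non-classical cells (ratio 1.14, interval 0.855 to 1.52), while in the mutant it stood at 107 and 448 CPM (4.20, 1.79 to 9.38).

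Outside the list, Hes1, a repressor induced by Notch signalling, was 4.45-fold higher in control (2.18 to 10.0) and 8.83-fold higher in mutant non-classical cells (2.92 to 27.9). Pmaip1, the pro-apoptotic BH3-only protein Noxa, was 4.57-fold (2.06 to 11.5) and 8.24-fold higher (2.09 to 34.1). Notch signals are known to promote non-classical monocytes. Among the 10 largest ratios also stood Wfdc2, Col4a4 and Dag1, which lung epithelial cells express. Epithelial RNA of 50 or more UMIs was carried by 5 of 14 non-classical and 3 of 12 classical control cells and by 0 of 3 and 2 of 26 mutant cells, and its part in these 3 genes was not tested.

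Several single genes were lower in non-classical cells in both libraries. Fn1, fibronectin, stood at 406 CPM in classical and 13.6 CPM in non-classical control cells, on 34 UMIs and 1 UMI, and at 575 and 40.7 CPM in the mutant, on 97 UMIs and 1 UMI. Wfdc17, a small secreted protease inhibitor-like protein, fell from 85 UMIs in classical to 3 UMIs in non-classical control cells and from 140 to 2 UMIs in the mutant. Lgals1, galectin-1, was 6.13-fold lower in non-classical cells in the control (3.41 to 12) and 4.76-fold lower in the mutant (2.15 to 13.1). Lyz2 was 2.90-fold lower (2.63 to 3.20) and 3.41-fold lower (2.85 to 4.12), and Npc2, a lysosomal cholesterol carrier, 3.59-fold (2.54 to 5.18) and 4.08-fold lower (2.04 to 9.56). The fixed lists of lysosomal and of repair and matrix genes held genes on both sides, with 13 of 21 and 13 of 16 lower in control non-classical cells and 14 of 21 and 8 of 16 in mutant ones, where the side of 2 lysosomal genes is not given by their bounds. Of all 2247 tested genes, 1120 were lower in control and 999 in mutant non-classical cells, by the sign of the ratio or bound. Of 9 tested genes of the classical list, 9 were lower in control and 8 in mutant non-classical cells, the exception being Thbs1 at a log2 ratio of -1.70 and 1.06.

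**Figure D3:**
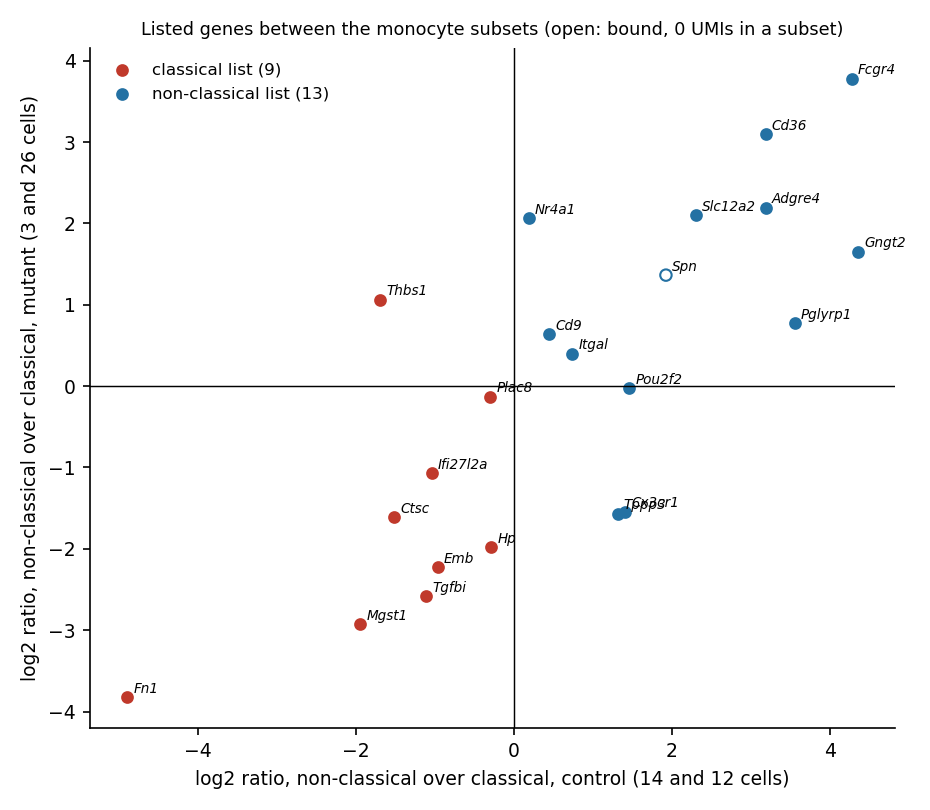
Each point is a gene of the classical or non-classical list with at least 20 UMIs, the genes that made the split left out. The x axis is its log2 ratio of CPM, non-classical over classical, in the control and the y axis the same in the mutant, and an open point is a bound where a subset held 0 UMIs. Most non-classical genes stand upper right and most classical genes lower left, with Thbs1, Cx3cr1 and Tppp3 in the other corners.

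The mutant and control monocytes were then compared as summed counts, over 175355 control and 208622 mutant UMIs. Of 2511 genes with at least 20 UMIs, 178 were at least 2-fold higher in the mutant (7.09%) and 343 at least 2-fold lower (13.7%), around a median log2 ratio over all tested genes of -0.06. In the Lyz2-high set 1556 genes were tested, and 90 were higher and 102 lower.

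The clearest group was that of the immediate-early genes, whose RNA appears within minutes of a stimulus and which mostly encode transcription factors and signal dampers. Their promoters often hold a site for the factor CREB, the cyclic AMP response element (CRE), whose half-site is TGACG. In the 250 bases before the gene start, the half-site on either strand stood in 9 of 19 matched list genes (Fos, Fosb, Junb, Egr2, Atf3, Dusp1, Btg2, Nr4a1 and Klf2) and in 19.8% of all 27025 genes of the RefSeq promoter table for GRCm38.p6. The longer TGACGT, which contains it, stood in 5 of the 19 and in 7.29% of all genes. The CArG box of serum response factor, searched by its consensus, stood in 2 of the 19 (Egr2 and Zfp36) and in 1.62% of all genes. A match describes the letters, not binding, and no match says only that these letters are not in this window. Shown 5′ to 3′ are Fos (chr12:85473640-85473889, plus strand), Atf3 (chr1:191183334-191183583, minus strand) and Nr4a1 (chr15:101266596-101266845, plus strand). They were taken from the 9 list genes with the half-site in this window. Capitals mark the half-site on either strand, with the sixth base where it completes TGACGT. The Fos window holds 2 half-sites, that of Atf3 1 and that of Nr4a1 4.
Fos: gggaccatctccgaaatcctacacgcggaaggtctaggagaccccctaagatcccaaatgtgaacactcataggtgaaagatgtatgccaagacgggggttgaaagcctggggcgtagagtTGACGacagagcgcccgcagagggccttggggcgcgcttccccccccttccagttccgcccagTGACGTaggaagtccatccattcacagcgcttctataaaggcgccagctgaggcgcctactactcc
Atf3: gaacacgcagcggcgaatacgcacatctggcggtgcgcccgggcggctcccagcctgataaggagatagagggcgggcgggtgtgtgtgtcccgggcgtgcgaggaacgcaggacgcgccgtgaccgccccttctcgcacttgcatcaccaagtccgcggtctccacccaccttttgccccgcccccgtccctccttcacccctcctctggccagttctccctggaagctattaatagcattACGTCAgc
Nr4a1: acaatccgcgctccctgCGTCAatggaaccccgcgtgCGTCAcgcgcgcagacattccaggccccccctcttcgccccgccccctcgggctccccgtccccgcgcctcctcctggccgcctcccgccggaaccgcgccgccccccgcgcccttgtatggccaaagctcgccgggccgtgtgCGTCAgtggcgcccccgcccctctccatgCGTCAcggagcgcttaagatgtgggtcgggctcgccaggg

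Of 22 listed immediate-early genes 19 had enough UMIs, and 17 of the 19 were at least 2-fold lower in mutant monocytes, against 13.7% of all tested genes. Their median log2 ratio was -2.42. Their RNA summed to 13641 CPM in control and 3700 CPM in mutant monocytes. Counted cell by cell, the list took a median of 120 per 10000 UMIs in the 28 control monocytes (lowest 20, highest 363) and 29.1 in the 32 mutant ones (lowest 7.92, highest 130). The ranges overlap, yet only 1 mutant monocyte lay above the control median and 1 control monocyte below the mutant median.

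Nr4a1, the factor on which non-classical monocytes depend, stood at 1215 CPM in control monocytes (213 UMIs, 27 of 28 cells positive) and 149 CPM in mutant ones (31 UMIs, 15 of 32 cells). It was 8.17-fold lower (interval 5.59 to 12.3). Jun, a subunit of AP-1, stood at 770 and 91.1 CPM and was 8.45-fold lower (5.21 to 14.5). Fos, its partner, stood at 1620 and 537 CPM and was 3.02-fold lower (2.42 to 3.79).

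The same direction held for genes that end such responses. Dusp1, a phosphatase of MAP kinases, stood at 1386 and 259 CPM, 5.35-fold lower (3.97 to 7.33). Zfp36, which destabilises cytokine messenger RNAs, stood at 633 and 101 CPM, 6.29-fold lower (3.92 to 10.6), and Atf3, a stress-induced repressor, at 365 and 43.1 CPM, 8.46-fold lower (4.19 to 19.3). Hspa1a, an inducible heat shock protein, stood at 878 and 125 CPM. The exception was Klf6, at 262 and 273 CPM, and Btg2 was lower by less than 2-fold, with a log2 ratio of -0.95.

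This group differed within each subset and in each definition of the cells. In classical cells alone 19 of 19 were lower (median log2 -2.53), and in non-classical cells 17 of 19 (-1.28, on 3 mutant cells). In the Lyz2-high set 19 of 19 were lower (-1.96), with cell medians of 128 and 35.9 per 10000 UMIs. In that set Nr4a1 stood at 1222 and 234 CPM, Jun at 922 and 80.8 CPM, and Fos at 2325 and 994 CPM.

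The direction was shared by other cells of the same 2 libraries. The list's median log2 ratio was -1.46 in alveolar macrophages (37 and 42 cells, 19 of 19 genes lower), -0.69 in endothelial cells (18 of 19), -0.60 in mesenchymal cells (16 of 19) and -0.91 in epithelial cells (18 of 19). The medians over all tested genes were, in the same order, -0.02, 0.003, -0.03 and 0.42, so the epithelial baseline is unlike the others. Nr4a1 gave -2.34 in alveolar macrophages and -0.44, -0.62 and -0.91 in the other 3. The value in monocytes was thus lower than in each of them, but the difference between cell types was not tested. Such genes, Hspa1a among them, are also known to be induced while tissue is dissociated into cells. The part of cell handling was not tested.

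**Figure D4:**
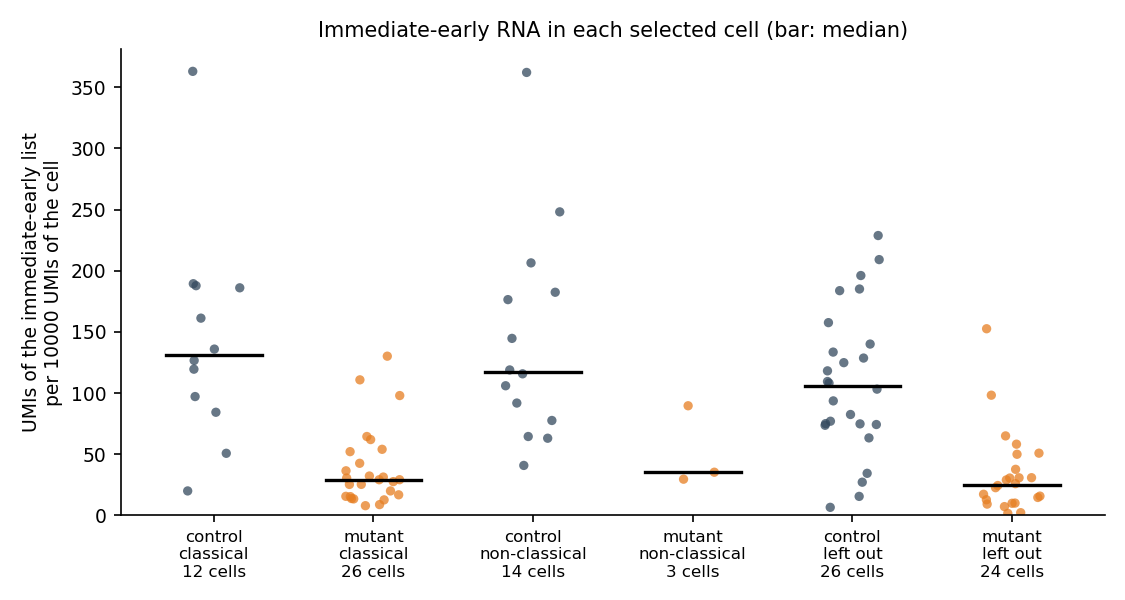
Each point is a selected cell, with the UMIs of the immediate-early list per 10000 UMIs of that cell on the y axis. Columns give the library and the class, and bars are medians. In the classical, non-classical and left-out columns alike the mutant bar lies below the control bar.

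**Figure D5:**
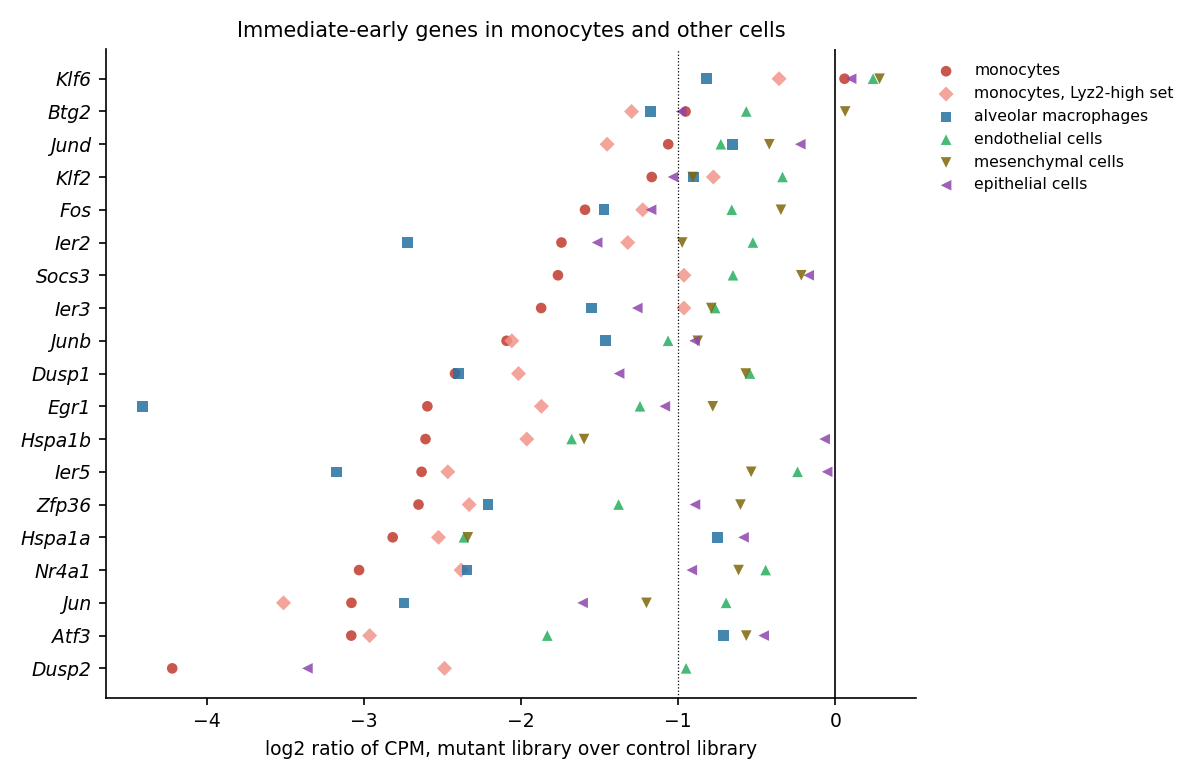
Each row is an immediate-early gene with at least 20 UMIs in monocytes, and the x axis is the log2 ratio of CPM, mutant over control. Red circles are monocytes, pink diamonds the Lyz2-high set and other symbols the other cell types; the dotted line marks 2-fold lower. Monocytes stand left of that line for 17 of 19 genes and endothelial and mesenchymal cells mostly between it and 0.

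Inflammatory genes lay on the same side. All 6 tested genes of that list were lower in the mutant and 3 at least 2-fold, with a median log2 of -1.25. Over all tested genes 54.2% were lower and 13.7% at least 2-fold lower. In the Lyz2-high set 5 of the 6 were lower and 3 at least 2-fold, with a median of -0.98. Il1b, the cytokine interleukin-1 beta, stood at 815 CPM in the control (143 UMIs in 17 of 28 cells, at most 35 in a cell) and 38.3 CPM in the mutant (8 UMIs in 4 of 32 cells). It was 21.3-fold lower (10.5 to 50.2), and in the Lyz2-high set it stood at 922 and 178 CPM. Nfkbia, the inhibitor of NF-kappa-B that this factor itself induces, stood at 673 and 177 CPM, 3.79-fold lower (2.60 to 5.65). Nfkbiz, a nuclear relative, went from 34 to 2 UMIs.

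The 2 chemokines Ccl6 and Ccl9 differed little, with log2 ratios of -0.39 and -0.24. Cd14, the lipopolysaccharide co-receptor, stood at 268 and 43.1 CPM, 6.21-fold lower (3.01 to 14.4), and at 331 and 56.6 CPM in the Lyz2-high set. In alveolar macrophages the inflammatory list had a median of -1.69 and Il1b a log2 ratio of -3.29, so this difference too was seen outside monocytes.

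Genes of non-classical monocytes were lower in the mutant, beside the smaller number of such cells given above. Of 17 tested genes of that list, 17 were lower and 14 at least 2-fold, against 54.2% and 13.7% of all tested genes, with a median of -1.41. In the Lyz2-high set 14 of the 17 were lower and 8 at least 2-fold, with a median of -0.93. The list includes Ace and Treml4, which made the split, and Nr4a1. Itgal, the integrin chain with which monocytes hold to vessel walls, stood at 382 and 158 CPM, 2.42-fold lower (1.57 to 3.78). Gngt2 stood at 547 and 187 CPM, 2.93-fold lower (2.00 to 4.37), and Eno3, a muscle-type enolase, had 20 control UMIs and 0 mutant UMIs, at least 7.93-fold lower with a floor of 3 counts over the group. Within classical cells alone the list's median was 0.10 over 12 genes, and Gngt2 was then higher in the mutant. Cx3cr1 and Adgre4 were nearly level in all monocytes, at 21 and 21 UMIs and at 20 and 21 UMIs.

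The list of classical monocyte genes had a median of -0.07 over 12 genes. Ly6c2, Ccr2, F13a1 and Plac8 of this list chose the cells. Over the other 8 genes the median was -0.15, and without the MHC class II-high cells the median over all 12 was 0.29. In the Lyz2-high set it was -0.33 and in classical cells alone -0.32, with 8 and 9 of the 12 genes lower. Over all monocytes 2 of the 12 were at least 2-fold higher, against 7.09% of all tested genes: Ccr2, at 257 and 580 CPM, and Fn1, at 205 and 470 CPM. Of 121 mutant Ccr2 UMIs 50 lay in the MHC class II-high cells, and without them its log2 ratio went from 1.18 to 0.99, under 2-fold. Without those cells Fn1 had a log2 ratio of 1.73, and Ly6c2 passed 2-fold at 1.17. In the Lyz2-high set the differences of Ccr2 and Fn1 shrank to log2 ratios of 0.50 and 0.78. Ly6c2 stood at 262 and 393 CPM in all monocytes but at 1103 and 873 CPM in the Lyz2-high set, where its order was the other one.

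Genes common to all monocytes mostly differed by less than 2-fold, with 14 of 19 tested lower, against 54.2% of all tested genes. Of the 19, 0 were at least 2-fold higher and 2 at least 2-fold lower, against 7.09% and 13.7% of all tested genes. The list's median was -0.31, and -0.16 in the Lyz2-high set, where 16 of 19 were lower. In classical cells alone 13 of 19 were lower (-0.29), and in non-classical cells alone 18 of 19 (-1.01, on 3 mutant cells). Lyz2 stood at 13949 and 14596 CPM (ratio 1.05, 0.992 to 1.10) and Spi1, the myeloid master factor PU.1, at 502 and 431 CPM. The 2 lower genes were Csf1r, the receptor for the growth factor CSF-1, and Cebpb, a factor that non-classical monocytes need. Csf1r stood at 411 and 139 CPM, 2.95-fold lower (1.89 to 4.72), with UMIs in 25 of 28 control and 15 of 32 mutant cells, and at 433 and 194 CPM in the Lyz2-high set. Cebpb stood at 1101 and 475 CPM, 2.32-fold lower (1.81 to 2.99), and at 1356 and 760 CPM in that set.

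Antigen display genes went opposite ways in their 2 classes over all monocytes, but not without the MHC class II-high cells. Of 7 tested class I genes 5 were lower in the mutant and 1, H2-K1, at least 2-fold, against 54.2% and 13.7% of all tested genes. H2-K1 stood at 445 and 168 CPM, 2.65-fold lower (1.76 to 4.07), H2-D1 at 1334 and 705 CPM, and B2m, the shared light chain, at 3159 and 1774 CPM. In the Lyz2-high set the 7 tested class I genes had a median of -0.47, and all 7 were lower. They were also all lower in alveolar macrophages (-0.55) and endothelial cells (-0.15), while 6 of 7 were lower in mesenchymal cells (-0.15) and 4 of 7 in epithelial cells (-0.04). The epithelial median over all tested genes was 0.42. All 6 tested class II genes were at least 2-fold higher in mutant monocytes, against 7.09% of all tested genes, with a median log2 of 4.18. H2-Aa went from 3 to 313 UMIs. Of those 313 UMIs, 311 lay in the 9 MHC class II-high cells, as did 94.6% of Cd74, 87.1% of Naaa and 72.4% of Irf8. Without those 9 cells 0 of the 6 genes passed 2-fold, with 4 higher and a median of 0.06. Over all selected cells the class II median was 0.52. In the Lyz2-high set H2-Aa had too few UMIs to compare. The 3 class II genes tested there had a median of -0.45, with 2 lower.

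Cell cycle genes of the G2/M list were higher in the mutant, with 7 of 8 tested genes past 2-fold, against 7.09% of all tested genes. Their median log2 was 2.03. Without the MHC class II-high cells 5 of the 8 passed 2-fold, with a median of 1.53, and only 3 of them then held 20 UMIs. Those 9 cells held 57.9% of mutant H2afz, 57.1% of Ube2c and 54.5% of Top2a UMIs. Of the other 23 mutant monocytes, 1 cell with 2 Lyz2 UMIs held 126 UMIs of the full list. The median over all 32 mutant monocytes was 12. Ube2c, a ubiquitin-conjugating enzyme of mitosis, had 0 control UMIs and 21 mutant UMIs, at least 5.88-fold higher with a floor of 3 counts over the group. It was seen in 8 of 32 cells, while Top2a, the topoisomerase of dividing chromosomes, had 22 UMIs in 2 cells only. The histone variant H2afz stood at 758 and 1913 CPM, but at 1403 and 1358 CPM in the Lyz2-high set, and its log2 ratio went from 1.33 to 0.67 without the MHC class II-high cells. Over all selected cells the list's median was 0.63. In the Lyz2-high set a single mutant cell held 94 of the 325 mutant UMIs of the full list. The median there was 1.32 over 6 genes, 2 of them lower. In alveolar macrophages 8 of 8 were lower in the mutant (-1.18) and in mesenchymal cells 4 of 8 (0.02). In endothelial and epithelial cells only 1 of 8 was lower, with medians of 0.55 and 1.92, where those over all tested genes were 0.003 and 0.42.

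Genes of other cells stood among the largest and smallest single ratios, beside Il1b and the immediate-early gene Dusp2 among the 10 smallest. The 10 smallest ratios included Ager, Aqp5, Igfbp2 and Aqp1, genes of AT1 cells or vessels, and 98.0% of control Ager UMIs, 99.1% of Aqp5, 98.7% of Igfbp2 and 96.7% of Aqp1 lay in the 10 monocytes with 50 or more epithelial UMIs. Of the 1349 Scgb1a1 UMIs in the mutant, 1338 lay in a single cell, and without such cells its log2 ratio went from 4.12 to -3.37. Epithelial RNA outside these cells was also higher in the control, where the Lyz2-high set had a median of 14 such UMIs per cell, against 1 in the mutant. The same genes were lower in mutant epithelial cells (list median -4.20), and the source of this RNA in the monocyte barcodes was not tested.

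Compared with alveolar macrophages, the resident macrophages of the air space, monocytes differed in part of the genes tested. Of 5082 genes tested outside the rule, 253 were at least 2-fold higher in monocytes in both libraries (4.98%) and 401 at least 2-fold lower (7.89%). The macrophages were themselves chosen by genes that exclude the monocyte genes, so these values are a description. Some listed genes changed side between the libraries, among them Gngt2, with log2 ratios of 0.87 and -1.16, and Fcgr4, with 1.89 and -1.03. S100a4, a calcium-binding protein of motile cells, stood at 1044 CPM in control monocytes and 8.81 CPM in macrophages, and at 1500 and 22.9 CPM in the mutant. Ifitm3, an interferon-induced membrane protein, stood at 2777 against 88.1 CPM in the control and at 2195 against 11.4 CPM in the mutant.

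Apoe, a lipid carrier, stood at 1717 against 132 CPM and at 1170 against 30.5 CPM. Lpl, lipoprotein lipase, was lower in monocytes, at 39.9 CPM in control monocytes and 921 CPM in macrophages, and at 4.79 and 815 CPM in the mutant. Abcg1, a cholesterol exporter, stood at 5.70 against 581 CPM and at 9.59 against 423 CPM. Mrc1, the mannose receptor, had 0 and 1 UMIs in monocytes and 130 and 111 UMIs in macrophages. Lyz2 was higher in monocytes in both libraries, by a log2 ratio of 1.58 in the control and 0.44 in the mutant. Macrophages with C1q RNA, which mark the lung interstitium, numbered only 3 and 7 cells and were not compared further.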

How the data were processed

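For 2 libraries the authors deposited UMI counts, a row per gene and a column per barcode, prepared with the 10x Chromium 3' kit from purified lung cells per the labels' protocols. The submitters' processing notes name Cell Ranger, Seurat and the build mm10. Their versions and filters are not stated here. Barcodes with at least 500 genes and under 10% mitochondrial UMIs were kept (Python 3.11.15, numpy 2.4.6, scipy 1.17.1, pandas 2.3.3, scanpy 1.11.5). Counts were summed over cells and divided by their total to give CPM. Ratios carry exact conditional binomial intervals. Genes needed 20 UMIs over the groups compared, and a 0 took a floor of 3 counts over the group. A gene was counted as higher or lower past 2-fold, which is no test. Thinning drew 2000 UMIs per cell. Alveolar macrophages were immune cells with at least 5 UMIs of the macrophage genes and under 4 of the monocyte genes. Other lineages were taken by Pecam1, Cdh5 and Cldn5, by Col1a1, Col1a2 and Col3a1, or by Epcam. Cells were not treated as replicates. Scrublet calls were used only in an alternative.

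The members, the 34 gene lists and the naming rule were chosen with earlier results of these data known, and 15 of 613 listed symbols were not matched. Named were genes of the selection rule and marker lists, per list the most abundant genes and the largest and smallest ratios, and per comparison the 10 largest and 10 smallest ratios among genes of at least 50 UMIs and 100 CPM. Hspa1a, Cd14, Itgal and other list members beyond that rule were named after their values were seen. The scripts were tested on simulated data.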

Additional observations from a re-analysis of the deposited data

Results flagged for a closer look

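For 2 listed genes the difference between non-classical and classical monocytes went opposite ways in the 2 libraries, with counting intervals on opposite sides of 0. The difference between the libraries was not tested. Cst3, cystatin C, had a log2 ratio of 0.97 in the control and -1.74 in the mutant, where the 9 MHC class II-high cells, 7 of them counted as classical, held 15304 CPM. Ager had -0.30 in the control and 1.61 in the mutant, where the non-classical side is 3 cells with 12 Ager UMIs, all in 1 cell. In classical cells a single cell held 327 of 373 Ager UMIs in the control and 24 of 27 in the mutant. The counting intervals do not cover such differences between cells.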

How the results depend on the processing

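In all, 14 alternatives were planned and 4, a split by 13 other genes, the Lyz2-high set and the sets without epithelial-rich or MHC class II-rich cells, were chosen after seeing the data. No paired analysis was possible because each group has 1 library, and for the same reason no replicate could be left out. Of 100 alternative values of 8 answers 70 stayed and 30 moved. The median of the immediate-early list ran from -2.57 to -1.59 over 16 alternatives and that of the non-classical list from -1.80 to -0.36 over 15, each with at least 20 UMIs per gene counted within the cells of that alternative. With the genes tested over all monocytes instead, and at least 5 UMIs, the immediate-early median was -1.28 in non-classical cells alone and the non-classical list's was 0.10 in classical cells alone, on the other side of 0. The cause of each change below was not tested.

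The share of selected cells among control immune cells was 35.1% after thinning. The non-classical share was 78.6% (control) and 43.8% (mutant) when split by other genes, in the planned as in the added form, and 29.2% (control) in the Lyz2-high set. Genes at least 2-fold higher in mutant monocytes numbered 889 with at least 5 UMIs per gene, 17 with at least 100, 65 in non-classical cells alone, 90 in the Lyz2-high set and 108 without MHC class II-rich cells. Genes at least 2-fold lower numbered 632 after subtracting free RNA, 1256 with at least 5 UMIs, 44 with at least 100, 173 in classical cells alone, 153 in non-classical cells alone, 102 in the Lyz2-high set and 151 without epithelial-rich cells. Genes higher in non-classical cells in both libraries numbered 183 with all selected cells, 143 by the mean CPM over cells, 128 after subtracting free RNA, 333 with at least 5 UMIs, 4 with at least 100, 54 with a split margin of 3 UMIs, 36 in the Lyz2-high set and 33 without epithelial-rich cells. Those lower in both numbered 23 after thinning, 13 with at least 100 UMIs, 4 with the margin and 27 in the Lyz2-high set.

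Some log2 ratios changed sign. Scgb1a1, mutant over control, stood at 4.12 over all monocytes. It gave -2.84 at a mitochondrial limit of 5%, -3.19 after thinning, -3.28 in non-classical cells alone, -2.99 in the Lyz2-high set and -3.37 without epithelial-rich cells. Gngt2 gave 1.25 in classical cells alone. In non-classical cells alone Itga4 gave -0.30 and H2afz -0.35. In the Lyz2-high set Irf8 gave -0.40, H2afz -0.047 and Naaa -0.34. In the mutant, the median non-classical over classical ratio of the classical list became 1.03 with the margin, and that of the MHC class II list 1.59 in both splits by other genes. The number of cells, above all the 3 mutant non-classical ones, limits the comparisons of subsets.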

Other observations

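Among lysosomal genes 18 of 21 tested were lower in mutant monocytes, and 6 of them passed 2-fold, where 54.2% of all tested genes were lower and 13.7% passed 2-fold. The list's median log2 was -0.39 (-0.46 in the Lyz2-high set, -0.11 without the MHC class II-high cells). Ctsa, the protective protein cathepsin A, stood at 290.8 CPM in control and 76.7 CPM in mutant monocytes, and Lgmn, the protease legumain, at 142.6 and 38.3 CPM. Ctsl, at 154 and 24 CPM, was not lower in the Lyz2-high set, where its log2 ratio was 0.45. Alveolar macrophages had a list median of 0.15, with 9 of 21 lower. In other cells the list was also lower. Its median was -0.31 in endothelial cells (19 of 20 genes lower), -0.45 in mesenchymal cells (17 of 21) and -0.43 in epithelial cells (16 of 21).

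Of 8 tested interferon-induced genes 6 were lower in mutant monocytes, 2 of them at least 2-fold, and 1 was at least 2-fold higher. Over all tested genes these shares were 54.2%, 13.7% and 7.09%. The list's median log2 ratio was -0.29, and it was -1.02 in alveolar macrophages (5 of 6 lower) and 0.06 in endothelial cells (2 of 6). Bst2, the virus-tethering protein tetherin, stood at 228 and 67.1 CPM, with a log2 ratio of -1.77 in all monocytes and -2.64 in the Lyz2-high set. Ifi203, a DNA-sensor family member, went the other way, at 51.3 and 148.6 CPM, with 1.53 and 1.80.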
